A study of Mus musculus with 36 samples.

Results

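The genes described here set the activity of the pyruvate dehydrogenase complex in the heart: the 4 pyruvate dehydrogenase kinase genes Pdk1, Pdk2, Pdk3 and Pdk4, the phosphatase genes Pdp1 and Pdp2, Pdha1 and Pdhb for the alpha and beta subunits of the first enzyme (E1) of the complex, and Mpc1 and Mpc2 for the mitochondrial pyruvate carrier. They were taken by gene symbol, 10 of 55291 symbols in the deposited tables, and all 10 were among the 19231 genes abundant enough to be tested. Pdk4 leads because it was selected on its large rise in ventricles without repeat expression, so its values in –dox against +dox are given as a description with no test.

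The data were mRNA sequencing of mouse heart. CUG960 mice carry a doxycycline (dox)-responsive transgene with an interrupted CTG repeat in the context of human DMPK (TREDT960I, homozygous) and the reverse tetracycline transactivator under the cardiomyocyte α-MHC promoter (MHCrtTA, hemizygous), so the repeat RNA of this myotonic dystrophy type 1 model is made in heart muscle cells and every group shares both alleles. Left ventricle and atria were taken at 21 weeks of age from 6 cohorts, with 3 libraries per cohort and chamber and 36 in all. The +dox cohort received dox from birth onward, the +/–dox cohort had it withdrawn at 9 weeks, and the –dox cohort never received it. In 3 further cohorts (MBNL1, MBNL2 and MBNL1+MBNL2) dox feeding went on, and the mice were injected at 9 weeks with AAV9 carrying human MBNL1, human MBNL2 or both under the human TNNT2 promoter, which is active in cardiomyocytes. In the libraries analysed here the vector cohorts were compared with +dox mice that carry no vector, so vector and MBNL protein cannot be told apart, and repeat RNA and dox feeding differ together between +dox and +/–dox or –dox.

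The pyruvate dehydrogenase complex turns pyruvate from glycolysis into acetyl-CoA inside mitochondria. The kinases switch it off by phosphorylating the E1 alpha subunit and the phosphatases switch it on again. In heart, Pdk4 is the kinase best known for rising in fasting, when the muscle burns fatty acids and spares glucose, and its transcription is known to be driven by PPAR nuclear receptors, FOXO factors and glucocorticoids. An mRNA level is not an enzyme activity, and in bulk tissue fewer cells of a type and less RNA per cell cannot be told apart.

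The sequences just upstream of Pdk4, Pdk2 and Pdk3 are shown because Pdk4 leads the set, Pdk2 is the most abundant kinase mRNA and Pdk3 is the kinase with the widest gap between the chambers. They are the RefSeq promoter windows on GRCm38.p6, trimmed to bases before the gene starts (for Pdk2 the upstream one of 2 annotated starts), written on the gene's own strand, all minus. Capitals mark matches to 7 short motifs searched on both strands. They are the forkhead core GTAAACA, the nuclear receptor core AGGTCA, the glucocorticoid receptor core AGAACA and the E box CACGTG. The others are the CCAAT box, which reads ATTGG from the opposite strand, the GC box GGGCGG and the TATA box, spelled TATAAA. The receptor cores are parts of longer elements, which were not searched for as a whole.
Pdk4, chr6:5496310-5496528: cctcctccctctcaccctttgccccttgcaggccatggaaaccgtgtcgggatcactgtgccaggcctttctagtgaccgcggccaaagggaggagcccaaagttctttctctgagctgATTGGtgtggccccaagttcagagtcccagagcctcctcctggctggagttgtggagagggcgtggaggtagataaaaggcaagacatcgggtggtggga
Pdk2, chr11:95041372-95041621: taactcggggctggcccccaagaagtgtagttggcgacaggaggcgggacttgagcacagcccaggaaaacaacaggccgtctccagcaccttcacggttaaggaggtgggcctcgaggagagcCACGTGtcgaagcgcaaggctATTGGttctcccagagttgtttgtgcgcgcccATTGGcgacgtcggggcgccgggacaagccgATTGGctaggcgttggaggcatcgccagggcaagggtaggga
Pdk3, chrX:93832202-93832400: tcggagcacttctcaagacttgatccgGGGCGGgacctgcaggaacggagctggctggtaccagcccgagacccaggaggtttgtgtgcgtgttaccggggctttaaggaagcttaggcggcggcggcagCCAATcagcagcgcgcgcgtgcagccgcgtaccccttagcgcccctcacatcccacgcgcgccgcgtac
The Pdk4 stretch held 1 CCAAT box and none of the other 6 motifs, that of Pdk2 held 3 CCAAT boxes and 1 E box, and that of Pdk3 held 1 CCAAT box and 1 GC box. Of 32851 promoter windows of 250 bases in the same table, 33.8% held a CCAAT box, 32.7% a GC box and 16.1% the glucocorticoid receptor core. The nuclear receptor core was in 14%, a TATA box in 12.4%, an E box in 6.02% and the forkhead core in 3.17%. The 250-base Pdk4 window had 6 CpG dinucleotides, against 19 for Pdk2 and 29 for Pdk3, with GC contents of 58.8%, 62.4% and 67.6% beside a median of 52.4% over all windows. These matches describe letters in a short window and carry no information on binding.

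Pdk4 (ENSMUSG00000019577, chromosome 6, 5483351 to 5496309 on GRCm38) was lowest in the +dox cohort in both chambers. In ventricle its level in TPM, transcript abundance scaled to gene length and to the library total, was 34.2, 39.5 and 19.8 in the +dox libraries (replicates 1, 2 and 3), 242, 312 and 87.8 in +/–dox, and 388, 200 and 199 in –dox. The vector cohorts gave 94.1, 140 and 89.3 TPM with MBNL1, 144, 55.5 and 70.9 TPM with MBNL2, and 242, 212 and 79.8 TPM with MBNL1+MBNL2. Every one of the 15 ventricular libraries from the other cohorts was above every +dox library, whereas the remaining 5 cohorts overlapped with their neighbours in the order of means. The means were 31.2 ± 10.2 TPM in +dox, 90.1 ± 47.2 with MBNL2, 108 ± 28.1 with MBNL1, 178 ± 86.3 with MBNL1+MBNL2, 214 ± 115 in +/–dox and 262 ± 109 in –dox (SD, n = 3).

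In atria the +dox libraries held 53.5, 66 and 57.4 TPM of Pdk4, the +/–dox libraries 178, 264 and 224 TPM and the –dox libraries 284, 160 and 351 TPM. With MBNL1 the levels were 95.3, 89.8 and 109 TPM, with MBNL2 155, 64.9 and 121 TPM, and with MBNL1+MBNL2 216, 96.8 and 99.7 TPM. Only the lowest MBNL2 library reached down into the +dox range, and the cohorts followed the order +dox, MBNL1, MBNL2, MBNL1+MBNL2, +/–dox and –dox, with means from 58.9 ± 6.43 to 265 ± 97 TPM. Neighbours above MBNL1 in that order overlapped. The plot of Pdk4 in each library shows this order side by side for the chambers.

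**Figure D1:**
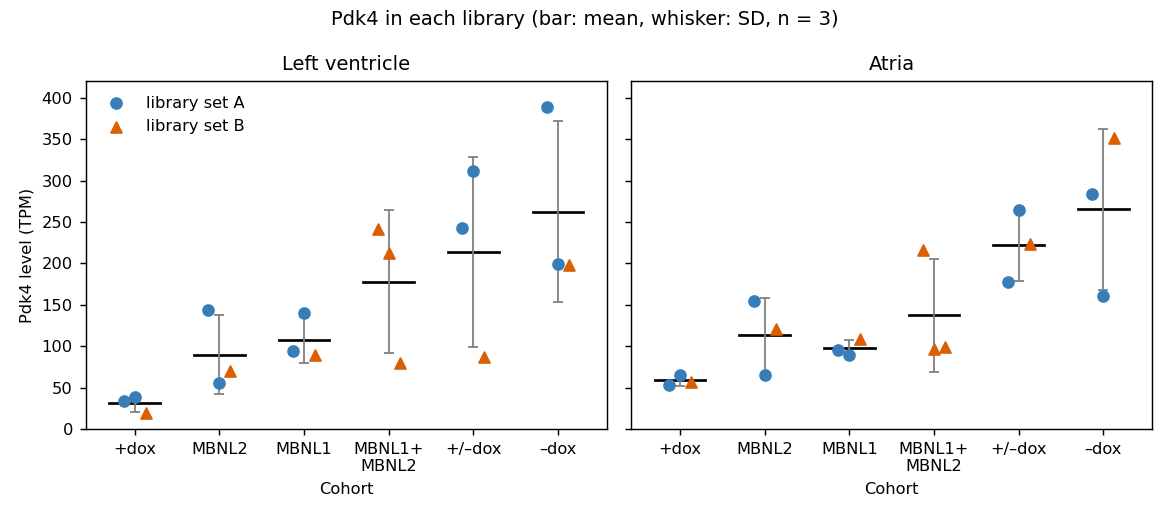
Pdk4 level in TPM (y axis) in each library of the 6 cohorts (x axis) for left ventricle and atria, with horizontal bars for means, whiskers for SD (n = 3), circles for library set A and triangles for library set B. All ventricular libraries outside +dox lie above the highest +dox value of 39.5 TPM, and the highest single value is 388 TPM in a –dox ventricle.

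Dox withdrawal was followed by a higher Pdk4 level in both chambers. In ventricle Pdk4 rose 6.9-fold in +/–dox against +dox, a log2 fold change of 2.79 with an SE of 0.514 (edgeR quasi-likelihood test, Benjamini-Hochberg adjusted p = 0.000367). In atria it rose 3.94-fold, or 1.98 ± 0.498 on the log2 scale (SE, adjusted p = 0.00918). A gene is called here if its adjusted p is below 0.05 and it differs by 1.5-fold or more. By that rule 2 of the 10 genes were called in ventricle, Pdk4 higher and Pdk3 lower, where 6.6% of all tested genes were called. In atria Pdk4 alone was called, beside 3.99% of all tested genes. The ventricular minus the atrial change was 0.81 on the log2 scale, with a 95% interval from -0.60 to 2.21 (adjusted p = 0.687), so a difference between chambers was not resolved. For that interaction edgeR called 0 of the 10 genes, with 0 at an unadjusted p below 0.05 and 0 by DESeq2, beside 0.489% of all tested genes. These tests reuse the +dox libraries of the contrast through which Pdk4 was chosen, so they are not independent of it.

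The contrast behind the choice, –dox against +dox, gave a Pdk4 log2 fold change of 3.10 in ventricle and 2.19 in atria. In each chamber 4 of the 10 genes had –dox libraries that did not overlap the +dox libraries, where 33.6% of all tested genes in ventricle and 36.6% in atria did so, and nothing is read from these counts. The –dox and +/–dox cohorts were close for Pdk4, at 0.31 on the log2 scale in ventricle (95% interval -0.68 to 1.3, adjusted p = 0.91) and 0.21 in atria (-0.78 to 1.20, adjusted p = 1). Both intervals still allow differences beyond 1.5-fold in either direction. Between these cohorts edgeR called 0 of the 10 genes in either chamber, with 0 in ventricle and 1 in atria at an unadjusted p below 0.05 and 0 by DESeq2. The shares of all tested genes called were 0.0312% and 0.0104%.

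With vector the clearest rise in Pdk4 was in ventricles given MBNL1+MBNL2, where it was 5.33-fold higher than in +dox (log2 2.41, SE 0.506, adjusted p = 0.00345). It was the single member of the 10 called, beside 2.65% of all tested genes. With MBNL1 alone Pdk4 rose 3.34-fold in ventricle (log2 1.74, SE 0.495, adjusted p = 0.0286), and Pdk3 was the other gene called, beside 2.66% of all tested genes. This Pdk4 call was lost without +dox replicate 1 (adjusted p = 0.0725) or 3 (0.125) or MBNL1 replicate 1 (0.0503) or 2 (0.0879). With MBNL2 alone the ventricular value was 1.36 (95% interval 0.34 to 2.37, adjusted p = 0.0916), although its libraries did not overlap +dox. There edgeR called 0 of the 10 genes against 1.52% of all tested genes. At an unadjusted p below 0.05 were 6 of the 10, beside 4294 of 19231 tested genes. DESeq2 called 1, Pdk4 itself (adjusted p = 0.0263).

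In atria no vector cohort passed the test for Pdk4. The log2 fold changes against +dox were 0.71 with MBNL1 (95% interval -0.28 to 1.71, adjusted p = 0.815), 0.97 with MBNL2 (-0.03 to 1.97, adjusted p = 1) and 1.17 with MBNL1+MBNL2 (0.17 to 2.18, adjusted p = 0.399). None of the 10 genes was called by edgeR in these comparisons, with 0, 0 and 2 at an unadjusted p below 0.05 and 0 by DESeq2, and the shares of all tested genes called were 0.13%, 0.0052% and 0.26%. The ventricular change with MBNL1+MBNL2 exceeded the atrial one by 1.24 on the log2 scale (95% interval -0.17 to 2.65, adjusted p = 0.829), so the chambers were not shown to differ. For this interaction 0 of the 10 genes were called by edgeR and by DESeq2, with 1 at an unadjusted p below 0.05, beside 0.0728% of all tested genes.

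Set against +/–dox, which is not part of the contrast used for the choice, the vector cohorts had lower mean Pdk4 levels without passing the test. In ventricle the log2 differences were -1.05 for MBNL1 (95% interval -2.05 to -0.05, adjusted p = 0.27), -1.43 for MBNL2 (-2.44 to -0.42, 0.0913) and -0.37 for MBNL1+MBNL2 (-1.37 to 0.62, 0.792). In atria they were -1.27 for MBNL1 (-2.27 to -0.26, adjusted p = 0.156), -1.01 for MBNL2 (adjusted p = 0.205) and -0.81 for MBNL1+MBNL2 (-1.80 to 0.19, 0.381). Across these 6 comparisons edgeR called 0 of the 10 genes each time. The shares of all tested genes called were 0.868%, 1.57% and 0.53% in ventricle and 1.21%, 3.24% and 1.71% in atria, in the order MBNL1, MBNL2 and MBNL1+MBNL2. At an unadjusted p below 0.05 there were 6, 9 and 6 of the 10 in ventricle and 2, 2 and 3 in atria. Of all 19231 tested genes 3254, 3528 and 2821 in ventricle and 3267, 4631 and 3845 in atria were below it. DESeq2 called 1, Pdk4, for MBNL2 in ventricle (-1.43, adjusted p = 0.0259) and 0 in the other 5. MBNL2 against MBNL1 gave a Pdk4 log2 difference of -0.38 in ventricle (adjusted p = 0.791) and 0.26 in atria (adjusted p = 0.998). For that pair 0 of the 10 genes were called by edgeR or DESeq2, with 2 and 1 at an unadjusted p below 0.05, beside 0.0156% and 0.0052% of all tested genes.

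The libraries carry names from 2 sets, and these moved with replicate number. Set A is replicates 1 and 2 of every cohort but MBNL1+MBNL2, whose libraries are all in set B together with the other cohorts' replicate 3. Xist was above 1 TPM in 10 libraries, all replicate 3 and all in set B, and in no MBNL1+MBNL2 library, so set and sex coincide in the other 5 cohorts and cannot be told apart there. Within set A, Pdk4 rose by 2.92 on the log2 scale in ventricle (adjusted p = 0.00545) and by 1.95 in atria (adjusted p = 0.0439) in +/–dox against +dox. The set A value for MBNL1 in ventricle was 1.64 (adjusted p = 0.0943) and for MBNL2 1.25 (adjusted p = 0.241). Within set B there is a single +dox library per chamber, and the log2 differences in Pdk4 from it were 2.17 for +/–dox, 2.11 for MBNL1, 1.77 for MBNL2 and 2.10 to 3.67 for the 3 MBNL1+MBNL2 libraries in ventricle. In atria the same differences were 2.04, 0.91, 1.11 and 0.80 to 1.97. All of these lie on the same side as the values over both sets. In each chamber the set B +dox library had Xist above 1 TPM and the MBNL1+MBNL2 libraries did not. For that cohort the set B differences therefore cannot be told apart from sex.

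Totals were 55032000 to 97091200 expected counts per library, and ventricular MBNL1 replicate 1 stood apart with 16885 genes detected against 20578 to 24041 in the others. The ventricular markers Myl2, Myl3, Irx4 and Myh7 summed to 19971 to 28116 TPM in ventricle and 288 to 1104 in atria, and the atrial markers Myl7, Myl4, Sln, Nppa and Bmp10 to 40261 to 61759 TPM in atria and 92 to 1007 in ventricle, as the labels say. Of these, Myh7 did not separate the chambers, at 194 to 449 TPM in ventricle and 206 to 342 TPM in atria. Red blood cell markers (Hba-a1, Hbb-bs, Alas2) in ventricle summed to 366 to 1147 TPM in +dox and 2254 to 2782 TPM in +/–dox. With MBNL1+MBNL2 they summed to 90.4 to 1269 TPM, and their r with Pdk4 over the ventricular libraries was 0.19 to 0.23. From +dox to +/–dox ventricle the skeletal muscle markers went from 1019 to 1123 TPM to 1282 to 1523 TPM. Of these, Myh4, Myh1 and Actn3 stayed below 1 TPM, so the sum rested on Ckm and Acta1. Endothelium markers went from 119 to 130 TPM to 155 to 173 TPM, and fibroblast markers from 550 to 590 TPM to 604 to 663 TPM. For each of these lists the +dox and +/–dox ranges did not overlap. Fibroblast markers in –dox ventricle, at 478 to 594 TPM, overlapped +dox. Over the ventricular libraries r with Pdk4 was 0.71 to 0.79 for the endothelium markers Pecam1, Cdh5 and Kdr. It was 0.60 for Ckm, 0.39 for Acta1 and -0.11 to 0.44 for the fibroblast markers. Differences between cohorts enter each r. The atrial myocyte markers in atria went from 40261 to 43329 TPM in +dox to 55807 to 60714 TPM in +/–dox. The part of these markers in the results was not tested. Liver markers stayed at or below 0.82 TPM and lung markers at or below 3.22 TPM. Feeding state and the time of day of collection were not stated in the sources used here.

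Among the other kinases, Pdk2 (ENSMUSG00000038967, chromosome 11, 95026258 to 95041354), the most abundant kinase mRNA in the +dox heart, was higher in +/–dox ventricle by less than the fold minimum. Its levels there were 283, 275 and 298 TPM against 209, 209 and 238 TPM in +dox, with no overlap. The log2 difference was 0.39 ± 0.0828 (SE, edgeR adjusted p = 0.000884). The MBNL2 and MBNL1+MBNL2 ventricles were lower than +/–dox by 0.35 (adjusted p = 0.00996) and 0.40 (adjusted p = 0.00872) on the log2 scale, and the MBNL2 atria by 0.30 (adjusted p = 0.0148). In atria the +/–dox libraries held 285, 288 and 283 TPM of Pdk2 against 234, 271 and 256 in +dox, again without overlap, with a log2 difference of 0.23 (adjusted p = 0.0621). The annotation places an antisense gene, Gm11513, within Pdk2, and the strand setting used for counting is not given in the sources used here.

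Pdk3 (ENSMUSG00000035232, X chromosome, 93764607 to 93832201), a kinase with low expression in most adult tissues, went the other way in ventricle. It held 1.92, 1.69 and 2.1 TPM in +dox and 0.83, 1.32 and 1.45 TPM in +/–dox, with no overlap, and fell by 0.67 on the log2 scale (SE 0.189, adjusted p = 0.0108). It also fell by 0.80 with MBNL1 (SE 0.188, adjusted p = 0.00803), from levels of 0.54, 1.43 and 1.43 TPM. Replicate 1 of that cohort is the library with few detected genes, and without it the log2 value was -0.48 (adjusted p = 0.0388), under the fold minimum. These ventricular levels rest on 64 to 287 expected counts per library. In atria Pdk3 was at 21.0, 20.8 and 21.2 TPM in +dox and 16.7, 17.6 and 16.4 TPM in +/–dox, which do not overlap, at a log2 difference of -0.25 (adjusted p = 0.371).

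Pdk1 (ENSMUSG00000006494, chromosome 2, 71873224 to 71903858), the kinase known as a target of hypoxia signalling, varied little. It ranged from 71.2 to 94.7 TPM in ventricle and 53.8 to 67.5 TPM in atria. The MBNL2 ventricles were lower than +dox by 0.29 (adjusted p = 0.00732) and lower than +/–dox by 0.24 (adjusted p = 0.0244) on the log2 scale, both under the fold minimum. On log2(TPM + 1) these differences were -0.14 (limma adjusted p = 0.203) and -0.09 (adjusted p = 0.477).

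Because TPM values are per length, the kinase mRNAs can be set side by side. Pdk2 made up 64.7% of the summed Pdk1 to Pdk4 level in +dox ventricle and 64.2% in +dox atria, and Pdk4 made up 9.31% ± 3.29 and 14.9% ± 0.726 (SD, n = 3). The Pdk4 share in ventricle was 21.2% ± 9.93 with MBNL2, 24.4% ± 4.93 with MBNL1, 34.9% ± 9.67 with MBNL1+MBNL2, 35.0% ± 14.6 in +/–dox and 41.9% ± 9.69 in –dox. In atria it was 21.9% ± 1.27 with MBNL1, 25.8% ± 8.52 with MBNL2, 27.5% ± 8.89 with MBNL1+MBNL2, 37.9% ± 4.70 in +/–dox and 42.4% ± 8.34 in –dox. Pdk4 exceeded Pdk2 in 4 of 36 libraries, each of them from a –dox or +/–dox heart. The summed kinase level was 338 ± 14.7 TPM in +dox and 583 ± 101 TPM in +/–dox ventricle, and 395 ± 25.8 and 582 ± 43.1 TPM in atria. The stacked bars of the kinase levels show that Pdk4 makes up most of these differences in height.

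**Figure D2:**
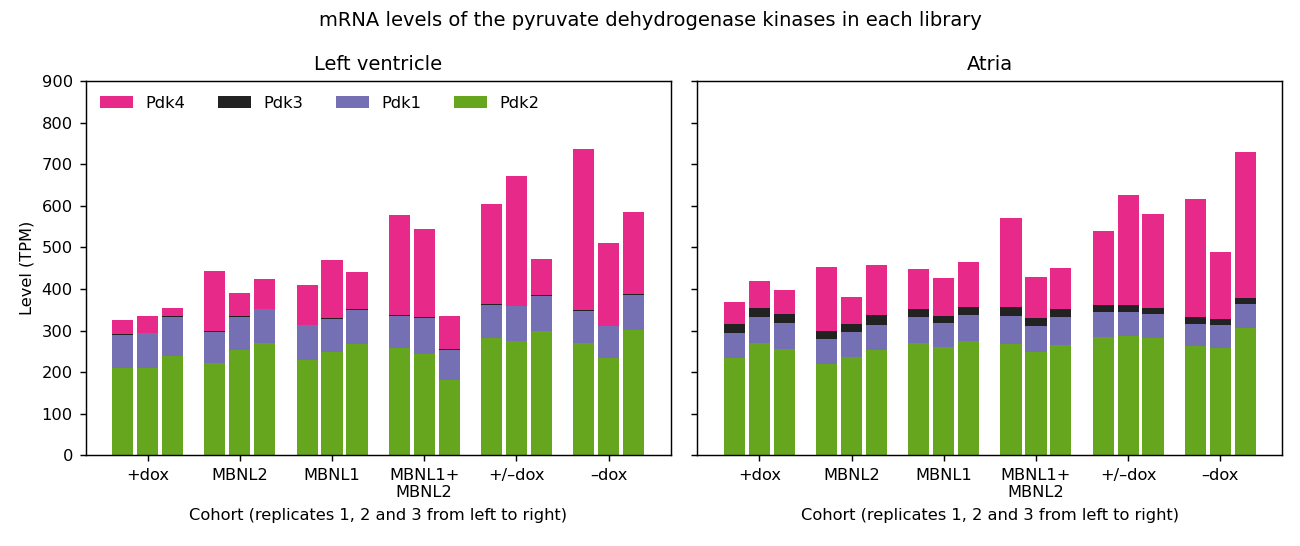
Stacked levels in TPM (y axis) of Pdk2, Pdk1, Pdk3 and Pdk4 in each library, with replicates 1 to 3 of the 6 cohorts from left to right (x axis), for left ventricle and atria. The Pdk4 segment is smallest in +dox, at a mean of 9.31% of the bar in ventricle and 14.9% in atria.

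The phosphatases, the E1 subunits, the carrier and the kinases Pdk1 and Pdk2 make 8 genes. None of them was called in any of the 18 tested comparisons between cohorts within a chamber. The shares of all tested genes called in those comparisons were 0.0052% to 6.6%, so nothing is read from that count. Of the 144 values for these 8 genes 12 had an adjusted p below 0.05, and all 144 log2 fold changes lay between -0.40 and 0.39. With limma on log2(TPM + 1) those 12 kept their sign and 2 of them an adjusted p below 0.05, Pdk2 in +/–dox and Pdp1 with MBNL1+MBNL2 against +dox in ventricle. The ratio of the highest to the lowest library within a chamber was 1.16 to 1.68 for these 8 genes. For Pdk4 it was 19.6 in ventricle and 6.57 in atria.

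Pdp1 (ENSMUSG00000049225, chromosome 4, 11958184 to 11966452), the calcium-stimulated phosphatase known from muscle, was lower with MBNL1+MBNL2 in ventricle, at 13.4 ± 0.5 TPM against 16.1 ± 1.57 TPM in +dox. The log2 difference was -0.40 ± 0.0822 (SE, adjusted p = 0.00188), and with MBNL2 it was -0.35 (adjusted p = 0.0101). In atria Pdp1 was 19.7 ± 1.05 TPM with MBNL1+MBNL2, which was 0.28 lower on the log2 scale than in +/–dox (adjusted p = 0.0317). Pdp2 (ENSMUSG00000048371, chromosome 8, 104591451 to 104599026), the phosphatase known to respond to insulin, lay at 7.29 to 11.5 TPM in ventricle and 6.03 to 10.1 TPM in atria. Its MBNL2 ventricles were lower than +/–dox by 0.40 (adjusted p = 0.0437).

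Pdha1 (ENSMUSG00000031299, X chromosome, 160122209 to 160138413), the subunit that the kinases phosphorylate, was at 469 to 604 TPM in ventricle and 446 to 542 TPM in atria. Pdhb (ENSMUSG00000021748, chromosome 14, 8165996 to 8173025) was at 345 to 425 TPM in ventricle and 288 to 334 TPM in atria. MBNL2 ventricles were lower than +/–dox by 0.31 for Pdha1 (adjusted p = 0.00855) and by 0.28 for Pdhb (adjusted p = 0.0418). With Pdk1, Pdk2 and Pdp2 this makes 5 of the 10 genes at an adjusted p below 0.05 in that comparison, all lower with MBNL2 and all under the fold minimum. On log2(TPM + 1) none of the 5 passed by limma (adjusted p from 0.125 to 0.477), with differences of -0.22 to -0.09 beside a median of 0.07 over all tested genes, and the share of called genes that were higher with MBNL2 went from 61.3% to 86.7%. The carrier genes Mpc1 (ENSMUSG00000023861, chromosome 17, 8282904 to 8297661) and Mpc2 (ENSMUSG00000026568, chromosome 1, 165460637 to 165481214) passed no test between cohorts, at 547 to 711 and 192 to 321 TPM in ventricle and 407 to 479 and 160 to 207 TPM in atria. Pdha1 and Mpc1 overlap genes on the opposite strand in the annotation, so a part of their counts is uncertain in the same way as for Pdk2. Mpc2 overlaps Gm37860 on the same strand, which leaves its counts uncertain also with stranded counting.

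**Figure D3:**
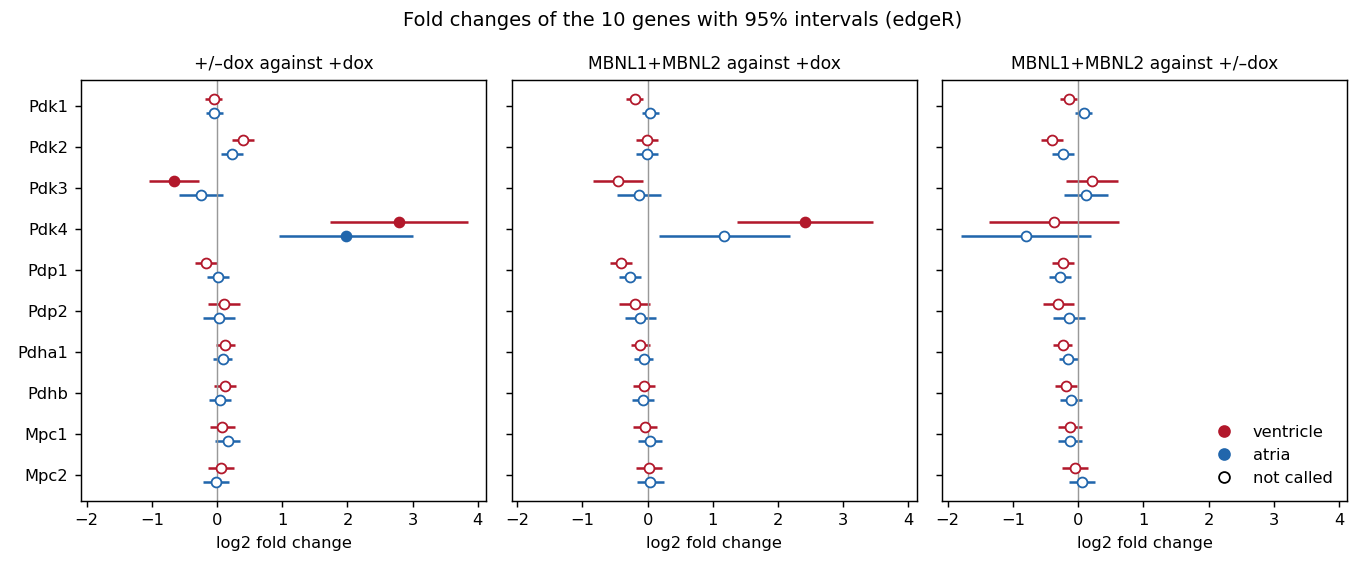
Log2 fold changes (x axis) of the 10 genes (y axis) with 95% intervals from edgeR in 3 comparisons, red for ventricle and blue for atria, filled where called. Pdk4 in +/–dox against +dox stands at 2.79 in ventricle and 1.98 in atria, and the other genes lie within 1 of zero in every panel.

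Between the chambers Pdk3 had the widest gap of the 10 genes. Averaged over the 6 cohorts, Pdk3 was 9.38-fold lower in ventricle than in atria, a log2 difference of -3.23 (SE 0.077, edgeR adjusted p = 6.6e-26). With the TMM scaling of edgeR, 7 of the 10 genes were called between the chambers, 6 higher and 1 lower in ventricle, beside 31.7% of all tested genes. The 6 were Mpc2 at 1.00, Mpc1 at 0.98, Pdk1 at 0.94, Pdhb at 0.80, Pdha1 at 0.61 and Pdp2 at 0.60 on the log2 scale. The sizes and the calls depend on how the chambers are scaled. On log2(TPM + 1) the median of all tested genes moved from -0.03 to -0.29, the share of called genes that were higher in ventricle fell from 45.6% to 10.1%, and of the 10 genes Pdk3 alone was called. On that scale the same 6 genes stood at 0.49, 0.47, 0.43, 0.31, 0.11 and 0.08, all above the shifted median, and Pdk3 at -3.02. Pdk2 turned from 0.41 to -0.09 and Pdk4 from 0.37 (adjusted p = 0.0967) to -0.19 between the scales, and Pdp1 was at -0.09 and -0.54. Both chambers came from the same 18 animals. With same-numbered libraries of a cohort taken as 1 animal, the same number of genes, 7 of 10, was called, with Pdk3 at -3.24 (SE 0.0787, adjusted p = 5.42e-17) and Pdk4 at 0.31 (adjusted p = 0.0816). In that fit the Pdk4 interactions were 0.71 (adjusted p = 0.56) for +/–dox and 1.28 (adjusted p = 0.456) for MBNL1+MBNL2, and the genes called among all tested went from 94 to 230 and from 14 to 59.

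**Figure D4:**
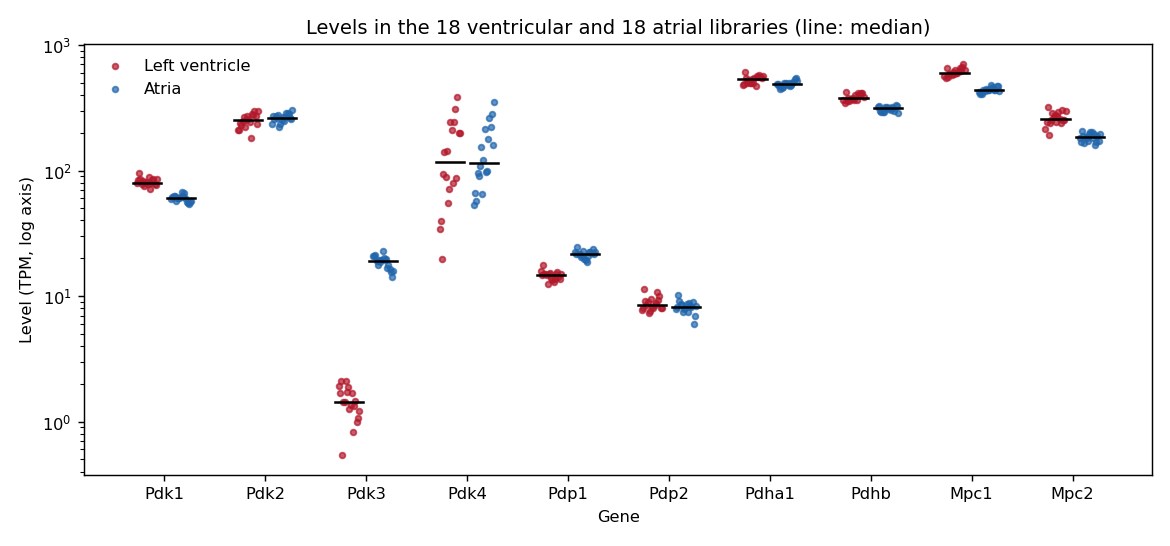
Level in TPM (y axis, log scale) of each of the 10 genes (x axis) in the 18 ventricular (red) and 18 atrial (blue) libraries, with a line at each median. Pdk3 is the gene whose chambers are separated by a wide gap, and Pdk4 shows the widest spread within a chamber, from 19.8 to 388 TPM in ventricle.

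Lists of other genes of pyruvate metabolism were set beside the 10 genes. The other subunits of the complex and its partner (Dlat, Dld, Pdhx, Pdpr) and the related oxoacid dehydrogenase genes (Bckdk, Ppm1k, Bckdha, Bckdhb, Dbt, Ogdh, Dlst) had 0 of 4 and 0 of 7 called by edgeR in each of the 18 comparisons between cohorts within a chamber. At an unadjusted p below 0.05 there were at most 2 and 6 of them in any comparison. The shares of all tested genes called in those comparisons were 0.0052% to 6.6%, so nothing is read from these counts. Of 10 genes for pyruvate and lactate handling, Gpt alone was called in +/–dox against +dox. There 6.6% of all tested genes were called in ventricle and 3.99% in atria. Gpt, an alanine aminotransferase that interconverts alanine and pyruvate, held 26.2, 24.1 and 23.2 TPM in +/–dox ventricle against 14.4, 15.3 and 15.1 TPM in +dox, and 6.61, 6.82 and 6.81 against 3.39, 3.79 and 3.64 TPM in atria. No library overlapped. It rose by 0.77 on the log2 scale in ventricle (SE 0.131, adjusted p = 7.89e-05) and by 1.12 in atria (SE 0.14, adjusted p = 1.32e-06). Median changes of that list were 0.04 and -0.04, beside 0.00 and 0.03 over all tested genes. Gpt was also lower than in +/–dox with MBNL1 in ventricle, by 0.71 on the log2 scale (adjusted p = 0.00253), and with MBNL2 and MBNL1+MBNL2 in atria, by 0.75 (adjusted p = 0.000443) and 0.78 (adjusted p = 0.000537). Against +dox it rose with MBNL1 in atria, by 0.66 (adjusted p = 0.0224).

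Some of the genes known to answer to PPAR receptors or fasting rose after dox withdrawal and most did not pass the test. Of 19 such genes 7 rose and 0 fell in +/–dox against +dox ventricle, where 6.6% of all tested genes were called, with a median log2 change of 0.35 beside 0.00 over all tested genes. In atria 4 rose and 0 fell, beside 3.99% of all tested genes called, with a median of 0.25 beside 0.03. The 12 and 15 others were not called. Angptl4, an inhibitor of lipoprotein lipase, rose by 2.47 in ventricle (SE 0.723, adjusted p = 0.0155) and by 2.41 in atria (SE 0.733, adjusted p = 0.0301). Its levels were low, at 0.18 to 6.94 TPM over all ventricular libraries and 0.54 to 5.96 TPM over all atrial libraries. Ucp3, a mitochondrial uncoupling protein of muscle, held 27.3, 35.2 and 9.45 TPM in +/–dox ventricle against 3.61, 6.67 and 3.95 TPM in +dox, and 9.49, 12.5 and 7.07 against 1.88, 3.85 and 1.16 TPM in atria. Its groups did not overlap in either chamber, and it rose by 2.33 (SE 0.519, adjusted p = 0.0021) and 2.07 (SE 0.533, adjusted p = 0.0106).

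Acot1, an acyl-CoA thioesterase with a near-identical neighbour in Acot2 that could share reads with it, held 4.88, 4.45 and 3.05 TPM in +/–dox ventricle and 0.52, 1.02 and 1.1 TPM in +dox. It rose by 2.25 in ventricle (SE 0.40, adjusted p = 0.000193), and in atria its value was 0.94 (adjusted p = 0.115). Ucp2, a relative of Ucp3, held 169, 159 and 153 TPM in +/–dox atria and 86.9, 103 and 82.3 TPM in +dox. It rose by 0.88 in atria (SE 0.159, adjusted p = 0.000366), and its ventricular value was 0.28 (adjusted p = 0.225). Whether the chambers differ for these genes was not read from these tests.

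In the vector cohorts against +dox, 2 of these 19 genes rose in ventricle with MBNL1+MBNL2, 1 with MBNL1 and 0 with MBNL2, beside 2.65%, 2.66% and 1.52% of all tested genes called. In atria they were 1, 1 and 0, beside 0.26%, 0.13% and 0.0052%, and none was called lower. With MBNL2, where 0 were called by edgeR, 6 in ventricle and 3 in atria had an unadjusted p below 0.05. The medians in ventricle were 0.35 with MBNL1+MBNL2 and 0.25 with MBNL1. Against +/–dox the MBNL2 cohort had 1 of 19 lower in ventricle, the triglyceride lipase Pnpla2, and 2 lower in atria, Acot1 and Pnpla2. All comparisons with +dox share the +dox libraries, and the list was chosen with earlier results known.

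**Figure D5:**
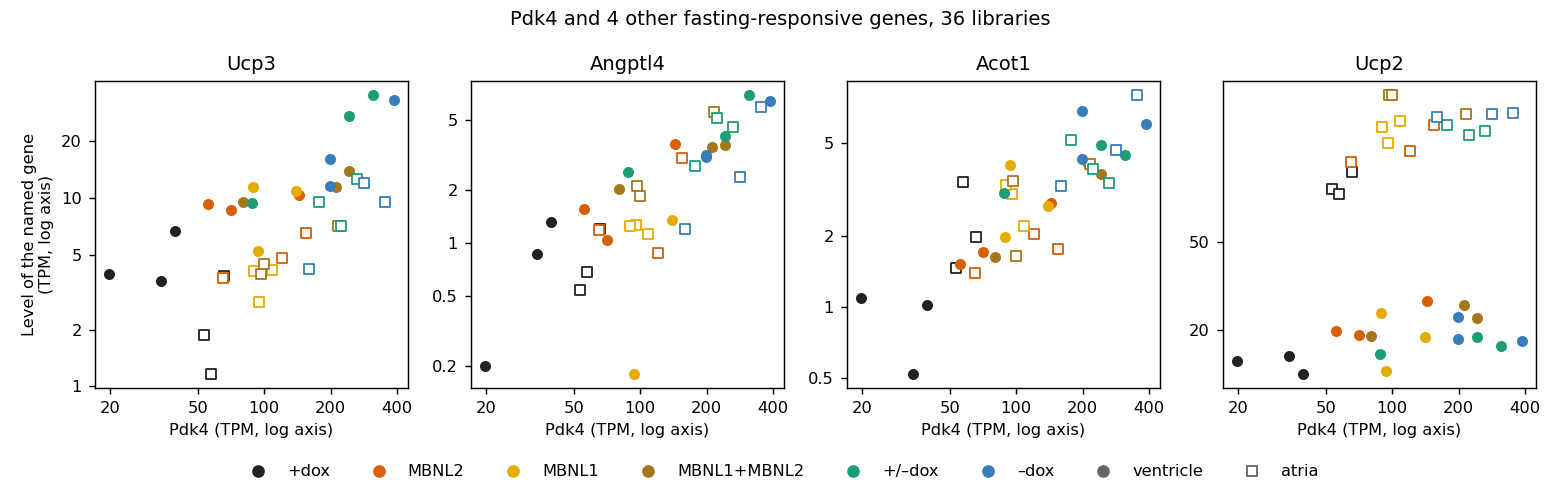
Level in TPM of Ucp3, Angptl4, Acot1 and Ucp2 (y axes, log scale) against Pdk4 in TPM (x axes, log scale) in 36 libraries, filled circles for ventricle, open squares for atria and colours for cohorts. The +dox libraries (black) sit at the left in each panel, Ucp3 and Angptl4 are higher in the libraries with more Pdk4, and Ucp2 forms separate bands for the chambers.

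Of 16 regulators of Pdk4, which include the PPAR, FOXO and insulin receptor genes, Klf15 alone was called in +/–dox against +dox ventricle, beside 6.6% of all tested genes, and 7 had an unadjusted p below 0.05. Klf15, a transcription factor known to be induced by fasting and glucocorticoids, rose by 0.65 (SE 0.136, adjusted p = 0.000846), and its value in atria was 0.46 (adjusted p = 0.0221), where 0 of 16 were called by edgeR and 5 had an unadjusted p below 0.05. Of 6 glucocorticoid-responsive genes Zbtb16 was called in both chambers, having risen by 1.11 in ventricle (SE 0.295, adjusted p = 0.00819) and by 1.18 in atria (SE 0.296, adjusted p = 0.00854). Of 14 clock genes Npas2, a partner of the clock activator, fell by 1.37 in ventricle (SE 0.387, adjusted p = 0.0114), where 7 had an unadjusted p below 0.05, and 0 were called in atria by edgeR, with 3 at an unadjusted p below 0.05. The medians of these lists in ventricle were 0.17, 0.24 and 0.14, beside 0.00 over all tested genes. In the vector cohorts Npas2 also fell with MBNL1 in ventricle, by 1.21 against +dox (adjusted p = 0.0445). That cohort includes replicate 1, the library with few detected genes. Npas2 held 0.15 to 1.25 TPM over the 18 ventricular libraries, so these falls rest on low levels. Zbtb16 was lower than in +/–dox in the atria of all 3 vector cohorts, by 1.01 with MBNL1 (adjusted p = 0.0479), 1.29 with MBNL2 (0.00528) and 1.03 with MBNL1+MBNL2 (0.0335). Fkbp5, a glucocorticoid-induced chaperone named here after its value was seen, rose by 0.87 with MBNL1+MBNL2 in ventricle (adjusted p = 0.0416).

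The genes most like Pdk4 across libraries were ranked by the lower of its 2 Pearson correlations, over 18 ventricular and over 18 atrial libraries, on log2 CPM (counts scaled to the library total). Ucp3 led with r of 0.88 in ventricle and 0.90 in atria, followed by Taf1a (0.88 and 0.87), Gm10603 (0.93 and 0.86), the triglyceride lipase gene Pnpla2 (0.86 and 0.86) and Coq8a (0.88 and 0.85), which acts in coenzyme Q synthesis. These points share cohorts, so the differences between cohorts enter each r. Over 36 libraries after subtracting each group's mean, the 5 highest were Acot2 (0.78), Gm10603 (0.76), Efemp1 (0.76), Lipe (0.75) and Slc25a22 (0.73), and the points include both chambers of the same animals. Of the 5 genes in each ranking 3 and 2 were kept with log2 TPM values, and 3 and 3 without ventricular MBNL1 replicate 1. Within the 10 genes, Pdk2 had r of 0.55 and 0.65 with Pdk4, and Pdk3 -0.55 and -0.65.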

How the data were processed

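mRNA sequencing libraries (poly(A)-selected, stranded kit) came from left ventricle and atria of 6 mouse cohorts. Per the submitters' processing notes reads were aligned with STAR 2.7.10b and quantified with RSEM 1.3.1 on mm10. The authors deposited expected counts per gene and TPM values for each library, which RSEM scaled to transcript length and library total. Expected counts were rounded to whole numbers, scaled by TMM and tested with the edgeR 4.0.16 quasi-likelihood test in R 4.3.3, on 36 libraries with 1 mean per chamber and cohort, after filterByExpr kept 19231 of 55291 symbols. P-values were adjusted by Benjamini-Hochberg over all tested genes. A gene was called if its adjusted p was below 0.05 and it differed by 1.5-fold or more. Levels are TPM. Totals of 55032000 to 97091200 expected counts set the counting precision. In the main fit the 36 libraries were treated as separate samples, although each of 18 animals gave both chambers. No 2 libraries of a group agreed within sampling noise.

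Groups were taken from the sample labels. Alternatives were DESeq2 1.42.0, limma 3.58.1 on log2(TPM + 1), RLE scaling in place of TMM and no filter. Others were no fold minimum, each chamber alone, each library left out, a replicate block and library set as a covariate. Same-numbered libraries of different cohorts within a chamber did not deviate together in every pair (0 of 20 comparisons had every pair's correlation above 0.1), so the main fit has no block. Between the chambers of a cohort 3 of 6 did, with correlations of 0.04 to 0.26. The study lists the same 18 animals for both chambers, so an alternative added after seeing the data took same-numbered libraries of a cohort as 1 animal. The scripts were tested on simulated data. The 10 genes and all gene lists were chosen with earlier results of these data known. Genes named from lists were those called in +/–dox against +dox, at most 3 per list and chamber by size of change. Coordinates and overlaps are from the GENCODE M21 annotation of GRCm38 (the study used M25), and promoter sequences from RefSeq matched 9 of the 10 genes. Pdp1 had no entry. A few genes of these lists, and 1 list, are not reported here.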

Additional observations from a re-analysis of the deposited data

How the results depend on the processing

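For Pdk4, 369 of 379 values under other settings kept the side of the threshold (for –dox against +dox, stayed within the larger cohort SD). Another 7 lost the call and 3 gained it, and no called value changed sign. Some uncalled ones did. In ventricle MBNL1+MBNL2 against +/–dox moved from -0.37 up to 0.0175 and –dox against +/–dox from 0.31 down to -0.116. In atria MBNL2 against MBNL1 moved from 0.26 down to -0.0701 and –dox against +/–dox from 0.21 down to -0.0163. Ventricle against atria moved from 0.37 down to -0.185. The ventricular MBNL1 rise was lost without the abundance filter (1.74, adjusted p = 0.0509), with ventricular libraries alone (1.75, 0.111) and in library set A alone, a setting chosen after seeing the data (1.64, 0.0943), and leaving out 1 library gave 1.47 to 1.99. DESeq2 called Pdk4 for MBNL2 in ventricle against +dox (1.37) and against +/–dox (-1.43), and leaving out 1 library gave -1.93 to -1.04 for the latter, called without +/–dox replicate 3 (-1.82, adjusted p = 0.0353). Leaving out 1 library gave 2.39 to 3.17 for +/–dox against +dox in ventricle and 1.76 to 2.12 in atria, and 2.09 to 2.75 for MBNL1+MBNL2 in ventricle, all called.

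The count of the 10 genes called in ventricular +/–dox against +dox fell from 2 to 1 with ventricular libraries alone, with limma on TPM and in set A, and was 1 to 2 with a library left out (1 without +/–dox replicate 1). For MBNL1 it was 1 without the filter, 0 with ventricular libraries alone, 1 with limma on TPM, 0 in set A and 0 to 2 with a library left out. For MBNL2 it was 1 with DESeq2 and 2 without the fold minimum. For MBNL1+MBNL2 it was 2 without the fold minimum and 1 to 2 with a library left out. Against +/–dox it was 1 (DESeq2), 5 (no fold minimum) and 0 to 1 (a library left out) for ventricular MBNL2, and without the fold minimum 1 for ventricular MBNL1+MBNL2, 1 for atrial MBNL2 and 1 for atrial MBNL1+MBNL2. Between chambers limma on TPM called 1. With limma on log2(TPM + 1) ventricular Pdk3 was at -0.41 (adjusted p = 0.0189) for +/–dox against +dox. For MBNL1 against +dox it was at -0.47 (adjusted p = 0.019), and both values were under the fold minimum alone. The cause of these moves was not tested, except that dropping the fold minimum admits smaller changes by construction. With counts in place of TPM the Pdk4 share was 18.3%, 26.6% and 44.5% in +dox, MBNL1 and +/–dox atria.

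With the replicate block Pdk4 gave 2.76 (adjusted p = 0.000146) and 1.78 (0.013) in ventricle for +/–dox and MBNL1 against +dox and 2.00 (0.00369) in atria for +/–dox. It changed no Pdk4 call, and a block by animal for the chamber comparisons, chosen after seeing the data, changed none either. Library set as a covariate and RLE scaling also changed no Pdk4 call. In no comparison of cohorts did every library correlate best with its own number. At about 64 to 287 counts, ventricular Pdk3 is the gene limited by depth. Library set A could not be used for MBNL1+MBNL2, which has no library there.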

Other observations

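Pdk4 in the ventricle was set beside Pdk4 in the atrium of the same cohort and replicate number, as deviations from each group's mean on the log2 scale, taking same-numbered libraries of a cohort as 1 animal. The study lists the same animals for both chambers, but the labels do not tie the numbers to them. Over 18 such pairs Pearson's r was 0.49 (exact permutation within cohorts, two-sided p = 0.106) and Spearman's rho 0.57 (p = 0.0537), with r of 0.51 without the 2 pairs farthest from the median, and 11 of 18 pairs deviated the same way. Both p-values belong to 1 relation and were not adjusted, and neither was below 0.05.

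Summed levels of 6 fat markers (Ucp1, Cidea, Adipoq, Plin1, Cidec and Lep) were 11.0 to 19.2 TPM in +dox ventricle and 16.8 to 29.7 TPM in the other ventricles. Cidea alone averaged 18.4 TPM over all 18 ventricular libraries, +dox included. Across the 18 ventricular libraries Cidea had r of 0.86 with Pdk4, and the other 5 markers had r below 0. The sum reached 67.9 TPM in atrial MBNL1+MBNL2 replicate 1, the atrial library of that cohort with the most Pdk4 (216 TPM). Their part in the Pdk4 level was not tested.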
